A study of Mus musculus with 4 samples.

Results

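Adhesion molecules of the immunoglobulin superfamily were compared between parental B16F1 cells and the tumor repopulating cells (TRCs) derived from them. The set comprised 10 genes chosen by symbol, *L1cam*, *Chl1*, *Nrcam*, *Ncam1*, *Negr1*, *F11r*, *Jam3*, *Alcam*, *Mcam* and *Vcam1*, of 39179 genes in the count data. B16F1 is an established mouse melanoma cell line. The parental group was the unselected line, and the TRC group consisted of cells that had grown out from single B16F1 cells in soft 3D gels of salmon fibrin. RNA-seq libraries were available for 4 samples, 2 per group, and both groups carried the replicate numbers 1 and 3. No other agent or genetic change was named for either group, and both came from 1 cell line. Because the TRC group was both cultured in a 3D gel and selected for growth there, the culture condition and the selection cannot be told apart.

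Proteins of this superfamily carry immunoglobulin-like domains on the cell surface and bind without calcium, either to a second copy of themselves on a neighboring cell or to a different partner. NCAM1 and the L1 family (L1CAM, CHL1 and NRCAM) are best known from axon growth, and the L1 family is tied to the membrane skeleton through ankyrins. NEGR1 belongs to the GPI-anchored IgLON family. F11R (JAM-A) and JAM3 (JAM-C) are junctional adhesion molecules, ALCAM and MCAM (CD166 and CD146) have been studied as melanoma surface antigens, and VCAM1 is the ligand through which α4β1 integrin holds leukocytes on endothelium.

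Each library held between 35948295 and 43511554 counts assigned to genes. Alignments that were not unique, which were assigned to no gene, made up between 15.2% and 25.2% of the alignments, with the highest share in TRC replicate 3. The labelled cell type was checked with markers. All 8 melanocyte markers were tested, and their summed level was 19418 and 16224 CPM (the read count scaled to a common library size with TMM) in parental cells and 24519 and 27316 CPM in TRCs. All 8 had a positive log2 fold change, but only 3 had TRC libraries above both parental libraries, beside 30.2% of all genes tested. In edgeR's exact test *Dct* alone was called (12.5% of the 8, beside 8.81% of all genes). It rose 2.11-fold (FDR = 0.000307), and in edgeR's quasi-likelihood test its FDR was 0.0704. The leukocyte markers *Ptprc*, *Cd3e* and *Adgre1*, the endothelial markers *Cdh5*, *Kdr*, *Tie1* and *Emcn* and the neuronal markers *Snap25*, *Stmn2* and *Nefl* had 0 counts in every library. The summed level of all 7 leukocyte markers was at most 5.20 CPM, that of the 5 endothelial markers at most 0.0962 CPM, that of the 5 epithelial markers at most 1.83 CPM and that of the 5 neuronal markers at most 0.247 CPM. The 6 fibroblast markers summed to 11.4 and 9.83 CPM in parental cells and to 5.80 and 3.12 CPM in TRCs. Of the 3 tested, *Col1a2* alone was called lower (33.3%, beside 7.05% of all genes). Its FDR was 4.15e-06 in the exact test and 0.016 in the quasi-likelihood test. The 4 glial markers, mainly *Mbp*, summed to 111 and 65.6 CPM in parental cells and 136 and 47.4 CPM in TRCs. Of the 3 tested, *Aqp4* alone was called higher in the exact test (33.3%, beside 8.81% of all genes). In the quasi-likelihood test 0 of the 3 were called. The part of these cells or genes in the values below was not tested. In bulk samples, fewer cells of a type and less RNA per cell cannot be told apart.

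A gene was tested when it reached 1 CPM in at least 2 libraries, which held for 11483 genes and for 8 of the 10 members. Of these 8 members, *Ncam1*, *F11r* and *Negr1* were higher in TRCs, with fold changes of 4.26, 4.40 and 2.63, and *Mcam* and *L1cam* were lower, at 0.327 and 0.437 of the parental level. *Alcam* did not pass the threshold, at 0.625 of the parental level, and neither did *Nrcam* and *Jam3*, with fold changes of 1.02 and 1.06. *Chl1* and *Vcam1* were too low to be tested. Over all genes tested, edgeR's exact test at a Benjamini-Hochberg FDR under 0.05 called 8.81% higher and 7.05% lower in TRCs, against 3 and 2 of the 8 members. The study had already named *Ncam1*, *F11r* and *Negr1* as TRC biomarkers from these data. The share of members called higher is therefore not an independent result. The study also measured *Ncam1* and *F11r* by qPCR and reported both higher in TRCs, a measurement apart from these counts. From RNA-seq it gave *Ncam1* a larger fold change than the 4.26 found here, and the reason was not tested. The libraries of the groups did not overlap for 3 members that were higher and 3 that were lower in TRCs, while over all genes 30.2% were higher and 30.4% lower without overlap. The median log2 fold change of the 8 members was 0.062, beside 0.0034 for all genes tested. The smallest two-sided p of an exact permutation test of 2 against 2 libraries is 0.333, and all adjusted p-values therefore rest on a model fitted across genes. No label says that the libraries came from separate cultures, and the p-values measure the spread between these samples.

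**Figure D1:**
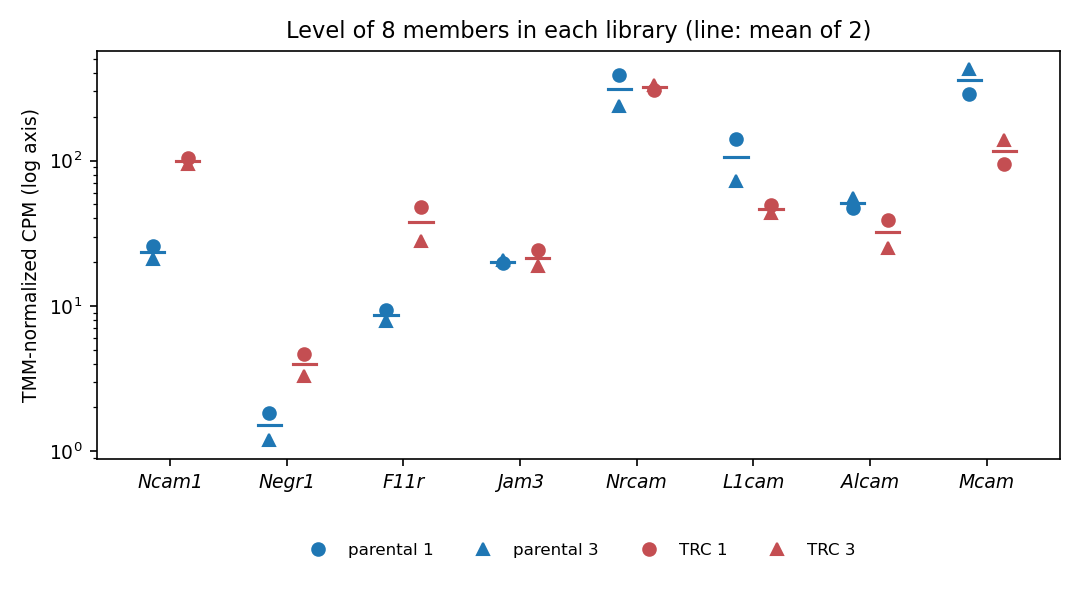
Level of the 8 tested members in each library, as TMM-normalized CPM on a log axis. Circles and triangles are replicates 1 and 3, blue is parental, red is TRC, and lines are means of 2 libraries. *Ncam1* lies between 94.2 and 105 CPM in TRCs and between 21.0 and 25.8 CPM in parental cells, whereas the libraries of the groups overlap for *Nrcam* and *Jam3*.

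The bases in front of the start site are shown for *F11r* and *Negr1*, which rose, and for *L1cam* and *Mcam*, which fell, to set the promoters of genes of either direction side by side. RefSeq promoter windows (GRCm38.p6) were found for 7 of the 10 members and were not found for *Ncam1*, *Jam3* and *Vcam1*. The 250 bases before the start are given 5′ to 3′ on the strand of the gene, with capitals for GGGCGG, the GC box bound by SP1-type factors, and for GCGTG, one of the cores (ACGTG or GCGTG) of the hypoxia response element, on either strand. The windows are chr1:171437311-171437560 on the plus strand for *F11r*, chr3:156561544-156561793 on the plus strand for *Negr1*, chrX:73880791-73881040 on the minus strand for *L1cam* (1 of its 2 listed start sites) and chr9:44134408-44134657 on the plus strand for *Mcam*.
F11r: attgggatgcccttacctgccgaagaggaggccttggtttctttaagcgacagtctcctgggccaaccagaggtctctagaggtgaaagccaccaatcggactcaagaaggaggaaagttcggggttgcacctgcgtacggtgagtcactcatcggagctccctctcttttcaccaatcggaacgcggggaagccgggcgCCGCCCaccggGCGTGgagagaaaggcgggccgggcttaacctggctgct
Negr1: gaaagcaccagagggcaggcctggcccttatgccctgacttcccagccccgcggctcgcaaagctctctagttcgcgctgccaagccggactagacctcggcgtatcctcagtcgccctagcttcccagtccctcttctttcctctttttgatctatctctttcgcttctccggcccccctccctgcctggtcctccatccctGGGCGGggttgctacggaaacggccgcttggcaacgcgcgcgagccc
L1cam: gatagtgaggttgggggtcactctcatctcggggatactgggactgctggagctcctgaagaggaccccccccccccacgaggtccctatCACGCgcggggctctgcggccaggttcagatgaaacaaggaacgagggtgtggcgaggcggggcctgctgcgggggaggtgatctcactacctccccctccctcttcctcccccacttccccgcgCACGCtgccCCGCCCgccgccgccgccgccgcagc
Mcam: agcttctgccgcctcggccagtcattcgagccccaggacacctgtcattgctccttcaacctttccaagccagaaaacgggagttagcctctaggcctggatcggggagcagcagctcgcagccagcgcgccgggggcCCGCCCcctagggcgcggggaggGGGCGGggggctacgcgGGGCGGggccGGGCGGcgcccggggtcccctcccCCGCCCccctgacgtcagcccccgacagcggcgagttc

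GGGCGG was present in the windows of 6 of the 7 members, all but *Chl1*, and in 32.7% of all 32851 RefSeq windows of this length. *Mcam* held 5 copies, and the windows of *F11r*, *Negr1* and *L1cam* held 1 each. GCGTG was present for 4 members, *F11r*, *L1cam*, *Nrcam* and *Alcam*, and in 28.2% of all windows. It was thus found for a gene that rose, a gene that fell and 2 genes that did not pass the test, and was not found in the windows of *Negr1* and *Mcam*. ACGTG (16.6% of all windows), the E-boxes CACGTG (6.02%, each also a match of ACGTG) and CATGTG (12.3%), which are bound by MITF-type factors, and TATAAA (12.4%) were found in none of the 7 members' windows. The GC content of the 4 windows shown ran from 60% to 73.6%, above the median of 52.4% over all windows. These windows end at RefSeq starts, which can lie inside the span of the gene given here. The *L1cam* window shown lies wholly inside that span, and those of *Mcam* and *F11r* extend into it. The *Negr1* window ends in front of the gene. A match is a description of the letters and not a measured binding site.

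*Ncam1* (ENSMUSG00000039542) is a minus-strand gene of chromosome 9 (49502136 to 49798925, GRCm38). NCAM1 binds itself and FGF receptors, and in melanoma it has been described on subsets of cells. Its level was 25.8 and 21.0 CPM in parental replicates 1 and 3, against 105 CPM for TRC replicate 1 and 94.2 CPM for TRC replicate 3. Every TRC library was thus above every parental library, with ratios from 3.65 to 5.01 among the 4 pairs, while replicates differed by ratios of 1.23 and 1.12. In TRCs over parental cells the log2 fold change was 2.09 (SE 0.22, FDR = 5.5e-16), rank 146 from the highest of 11483. A stretch of 417 bases, or 4.81% of the merged exons of *Ncam1*, is shared with the antisense gene *Gm11149*, which had at most 1 count in any library. Gene-level counts do not separate the transmembrane and GPI-anchored isoforms of NCAM1.

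*Negr1* (ENSMUSG00000040037) is a plus-strand gene of chromosome 3 (156561794 to 157316445) and encodes an IgLON protein that supports neurite growth. It was the lowest of the tested members, with 81 counts (replicate 1) and 42 counts (replicate 3) in parental cells against 193 and 138 counts in the respective TRC libraries. These were 1.82 and 1.19 CPM in parental cells and 4.64 and 3.32 CPM in TRCs. The groups did not overlap, and the closest pair of libraries differed by a ratio of 1.82, against 1.53 within parental cells and 1.40 within TRCs. The log2 fold change was 1.39 (SE 0.53, FDR = 0.0283). The call did not hold in edgeR's quasi-likelihood test (FDR = 0.0847), and it was lost without parental replicate 3 (FDR = 0.275), without TRC replicate 1 (FDR = 0.3) and without TRC replicate 3 (FDR = 0.0806). The 4 other IgLON genes, *Lsamp*, *Ntm*, *Opcml* and *Iglon5*, had at most 2 counts in any library.

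*F11r* (ENSMUSG00000038235) is a plus-strand gene of chromosome 1 (171437535 to 171464603). It encodes JAM-A, which sits at tight junctions and whose cytoplasmic end binds the polarity protein PAR3. Its level was 9.33 CPM (replicate 1) and 7.88 CPM (replicate 3) in parental cells, against 47.6 and 28.2 CPM in the respective TRC libraries. Both TRC libraries were above both parental libraries although they differed from each other by a ratio of 1.69, and the 4 ratios between groups ran from 3.02 to 6.05. In TRCs over parental cells the log2 fold change was 2.14 (SE 0.32, FDR = 2.36e-08), rank 138 from the highest.

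*Jam3* (ENSMUSG00000031990) is a minus-strand gene of chromosome 9 (27097384 to 27155421) and encodes JAM-C, a relative of JAM-A that binds JAM-B and the leukocyte integrin αMβ2. Its level was 19.7 and 20.7 CPM in parental cells and 24.1 and 18.8 CPM in TRCs, and the groups overlapped. The log2 fold change was 0.09 (FDR = 0.885), and the 95% interval from DESeq2 ran from −0.42 to 0.60. In the annotation used here an antisense gene, *Gm48796*, covers 36.2% of the exon length of *Jam3*. *Gm48796* is not among the genes of the count data and has no count of its own. Reads from it could have been counted for *Jam3* unless strand was used in counting. *F11r* lay below *Jam3* in parental cells and above it in TRCs. Per length of merged exons, the ratio of *F11r* to *Jam3* within a library, which no scaling of libraries can alter, was 0.571 (replicate 1) and 0.457 (replicate 3) in parental cells, against 2.37 and 1.80 in the respective TRC libraries. *Jam2*, which encodes JAM-B, was at 3.67 and 2.83 CPM in parental cells and 8.78 and 3.27 CPM in TRCs, and its log2 fold change of 0.89 did not pass the test (FDR = 0.258).

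*L1cam* (ENSMUSG00000031391) is a minus-strand gene of chromosome X (73853778 to 73896105). L1CAM binds itself and RGD-dependent integrins, and its intracellular part binds ankyrin. Its level was 141 CPM in parental replicate 1 and 72.0 CPM in parental replicate 3, against 49.5 CPM for TRC replicate 1 and 43.5 CPM for TRC replicate 3. The TRC libraries were close to each other and below both parental libraries, which differed from each other by a ratio of 1.95. In TRCs over parental cells the log2 fold change was −1.19 (SE 0.31, FDR = 0.00123). The size of the decrease depended on parental replicate 1, since without it the log2 fold change was −0.63 and the FDR was 0.0794. Without TRC replicate 3 the values were −1.10 and 0.0836. The 100 bases shared with exons of *Arhgap4* on the same strand make up 1.36% of the exon length, and *Arhgap4* had at most 23 counts.

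*Nrcam* (ENSMUSG00000020598) is a plus-strand gene of chromosome 12 (44328885 to 44601964) and encodes a member of the L1 family that gathers with ankyrin G at nodes of Ranvier. Its level was 388 CPM (replicate 1) and 237 CPM (replicate 3) in parental cells, against 308 and 332 CPM in the respective TRC libraries. Both TRC libraries lay between the parental libraries. The log2 fold change was 0.034 (FDR = 0.953), and its 95% interval ran from −0.48 to 0.55. *L1cam* and *Nrcam* were both higher in parental replicate 1 than in replicate 3, and within the parental group their ratio differed less than either level. Per length, *L1cam* to *Nrcam* was 0.660 and 0.552 in parental cells and 0.292 and 0.238 in TRCs. All 4 values were below 1, and the groups did not overlap. *Chl1* (ENSMUSG00000030077), the close homolog of L1 on chromosome 6 from 103510586 to 103750211, had 1 count in parental replicate 1 and 0 counts in the other 3 libraries. *Nfasc*, the remaining gene of the L1 family, had at most 2 counts. At these depths 3 counts, taken as the smallest detectable number, correspond to between 0.0675 and 0.0850 CPM, a limit that covers counting error only.

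*Mcam* (ENSMUSG00000032135) is a plus-strand gene of chromosome 9 (44134469 to 44142727). MCAM was first described as a human melanoma antigen and binds laminin with the α4 chain among other partners. Its level was 289 CPM in parental replicate 1 and 426 CPM in parental replicate 3, against 94.7 CPM for TRC replicate 1 and 139 CPM for TRC replicate 3. Both TRC libraries were below both parental libraries, and the 4 pairs had ratios from 2.08 to 4.50 in favor of parental cells, while replicates differed by 1.47 in each group. In TRCs over parental cells the log2 fold change was −1.61 (SE 0.28, FDR = 6.85e-07), rank 75 from the lowest. *Mcam* shares 17 bases of its exons with the antisense gene *Gm10687*, which had at most 36 counts.

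*Alcam* (ENSMUSG00000022636) is a minus-strand gene of chromosome 16 (52248996 to 52454074). ALCAM binds itself between cells and CD6 on lymphocytes. Its level was 46.9 and 55.7 CPM in parental cells and 39.1 and 25.0 CPM in TRCs. Both TRC libraries were below both parental libraries, but the closest pair differed by a ratio of only 1.20, less than the 1.56 between the TRC libraries. The log2 fold change was −0.68 (FDR = 0.0666, 95% interval from −1.23 to −0.12). Without TRC replicate 1 it was −1.04 and passed the test (FDR = 0.0263). *Vcam1* (ENSMUSG00000027962), on chromosome 3 from 116109949 to 116129688, had 0 counts in all 4 libraries, so a level of up to 0.0675 to 0.0850 CPM per library was not detectable at this depth. Of its integrin receptor, *Itga4* was at 128 and 110 CPM in parental cells and 120 and 108 CPM in TRCs (log2 fold change −0.06, FDR = 0.898).

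**Figure D2:**
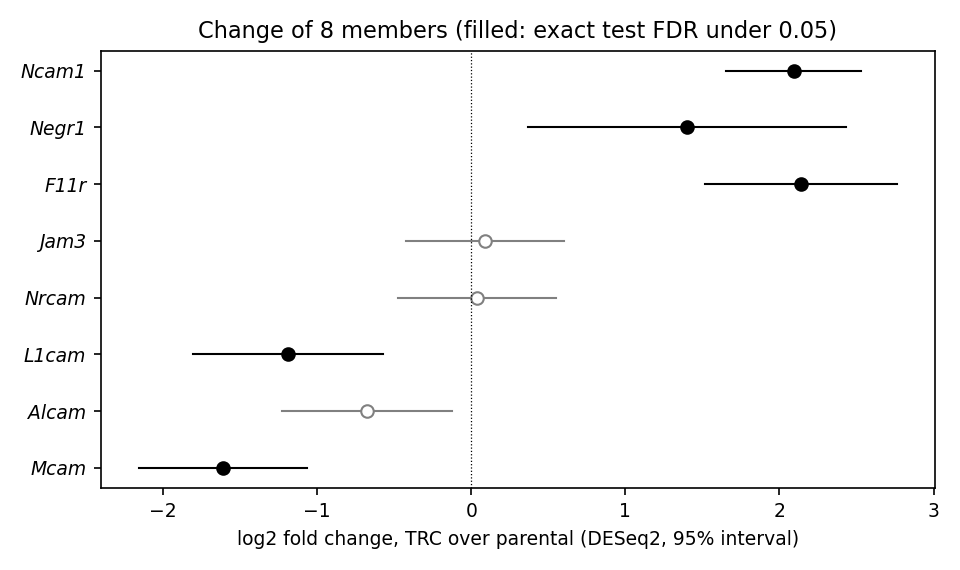
Log2 fold change of TRCs over parental cells for the 8 tested members, as DESeq2 coefficients (points) with 95% intervals (lines), 2 libraries per group. Filled points have an FDR under 0.05 in edgeR's exact test. *Ncam1*, *F11r* and *Negr1* lie above 0, *L1cam* and *Mcam* below 0, and the intervals of *Jam3* and *Nrcam* include 0. The interval of *Alcam* ends at −0.12, but its FDR over all genes was 0.0666.

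Levels of different genes can be compared only per length, and counts were therefore also divided by the length of the merged exons of each gene in GENCODE M21 (RPKM). On this scale *Mcam* was the highest member in every library, with 86.3 and 127 RPKM in parental cells and 28.3 and 41.5 RPKM in TRCs. *Nrcam* came after it in every library, between 17.8 and 29.0 RPKM. The order below them differed between the groups. In both parental libraries *L1cam* came next, followed by *Alcam*, *Jam3*, *F11r* and *Ncam1* in falling order. The parental levels of *F11r* (2.96 and 3.51 RPKM) and *Ncam1* (2.42 and 2.98 RPKM) overlapped across libraries. In TRCs *F11r* and *Ncam1* came after *Nrcam*, in this order in replicate 1 (17.9 and 12.1 RPKM) and in the reverse order in replicate 3 (10.6 and 10.9 RPKM), so these neighbors did not differ beyond their spread. *L1cam* and *Jam3* followed at 5.92 to 6.74 and 5.89 to 7.54 RPKM, also in either order, and *Alcam* came after them at 5.49 and 3.52 RPKM. *Negr1* was the lowest of the 8 tested members in every library, with at most 0.442 RPKM. Compared with *Mcam*, *Ncam1* moved from 0.0345 and 0.0191 of its level in parental replicates 1 and 3 to 0.429 and 0.262 in TRC replicates 1 and 3. The pairs of genes set in ratio here were chosen with the values known, and the ratios are a description.

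The summed level of the 10 members was 154 RPKM (replicate 1) and 174 RPKM (replicate 3) in parental cells, against 101 and 104 RPKM in the respective TRC libraries. *Mcam* made up 56.1% and 72.8% of this sum in parental cells and 27.8% and 40.2% in TRCs. *Ncam1* and *F11r* made up 1.93% and 2.28% in parental replicate 1, 1.39% and 1.70% in parental replicate 3, 11.9% and 17.6% in TRC replicate 1, and 10.5% and 10.2% in TRC replicate 3. The sum was lower in both TRC libraries, and the rises of *Ncam1* and *F11r* were smaller on this scale than the fall of *Mcam*. The mean of *Mcam* fell from 107 RPKM in parental cells to 34.9 RPKM in TRCs. The lower sum was thus not a fall shared by all members. Merged exons are longer than single transcripts, so a gene with many alternative exons is understated on this scale.

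**Figure D3:**
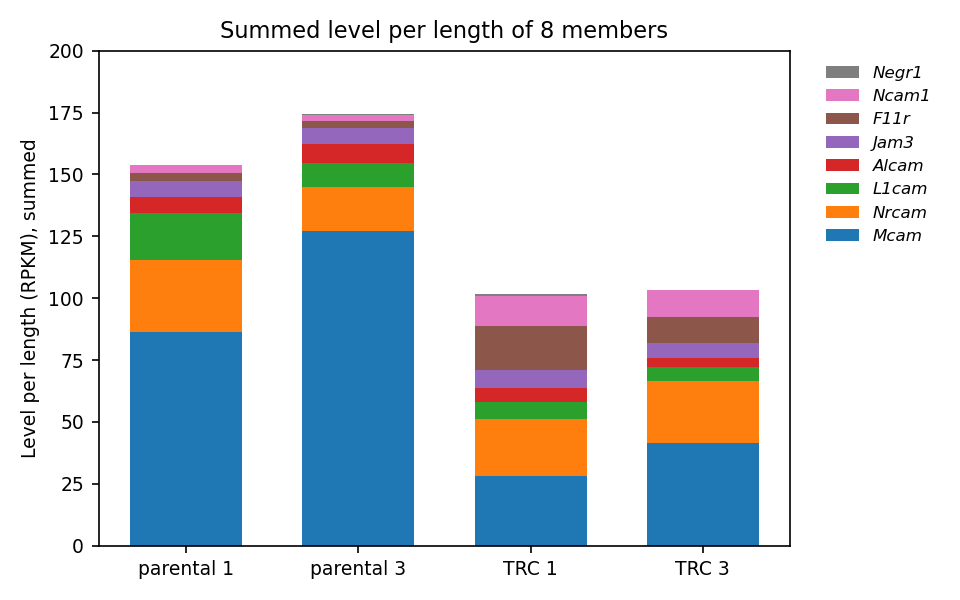
Summed level per length (RPKM, stacked from 0) of the 8 tested members in each of the 4 libraries, with a color per gene. The stack reaches 154 and 174 RPKM in the parental libraries and 101 and 104 RPKM in the TRC libraries. *Mcam* is the largest part in each, and *F11r* and *Ncam1* are wider in TRCs.

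Relatives of the 10 genes were taken from lists of 58 further adhesion genes of the superfamily, of which 23 were tested. These lists were chosen with earlier results of these data known, so the shares called are not independent results. Of these 23 genes, 6 were higher and 1 was lower in TRCs at an FDR under 0.05, which is 26.1% and 4.35%, beside 8.81% and 7.05% over all genes. In all, 18 were higher and 5 lower, and the median log2 fold change was 0.50. For 11 the libraries did not overlap with TRCs higher, and for 3 with TRCs lower, beside 30.2% and 30.4% of all genes. A further 14 relatives had 0 counts in every library.

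Of the 11 tested junctional genes, 4 rose and 1 fell (36.4% and 9.09%, beside 8.81% and 7.05% of all genes). *Cadm4*, a SynCAM protein that binds across cell contacts, was at 31.3 and 25.8 CPM in parental cells and 78.5 and 59.6 CPM in TRCs (log2 fold change 1.27, SE 0.25, FDR = 1.5e-05). *Nectin2*, which binds nectins on the opposite cell and afadin inside the cell, was at 20.5 and 28.8 CPM in parental cells and 54.0 and 45.0 CPM in TRCs (log2 fold change 1.01, FDR = 0.00252). Both TRC libraries were above both parental libraries for each. *Cxadr*, the coxsackievirus and adenovirus receptor of tight junctions, rose from 1.80 and 1.70 CPM to 8.06 and 3.49 CPM (FDR = 0.00951). *Igsf11*, named because it completes the count and chosen after its values were seen, rose with a log2 fold change of 1.01 (FDR = 0.018). In the quasi-likelihood test the FDR was 0.0638 for *Cxadr* and 0.0695 for *Igsf11*. *Kirrel*, a nephrin-like protein, fell from 209 and 268 CPM to 137 and 132 CPM (log2 fold change −0.82, FDR = 0.00644).

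Among the 4 tested genes of endothelial and leukocyte ligands, 2 rose, beside 8.81% of all genes. *Bsg*, which encodes basigin, the escort of lactate transporters to the membrane, was at 325 and 335 CPM in parental cells and 682 and 1388 CPM in TRCs (log2 fold change 1.65, SE 0.31, FDR = 7.56e-06). The TRC libraries were apart from each other as well as from the parental libraries. *Ceacam1*, a homophilic receptor with inhibitory signaling motifs, rose from 1.12 and 0.709 CPM to 5.03 and 2.84 CPM (log2 fold change 2.09, FDR = 0.00146). Of the 8 tested neural relatives, 0 passed the exact test, beside 8.81% of all genes called higher and 7.05% lower. In the exact test 1 had an unadjusted p under 0.05, and 0 were called in the quasi-likelihood test and in DESeq2's Wald test. A positive log2 fold change was found for 7 of the 8. Without parental replicate 1, the neural relative *Igsf8* was called higher (FDR = 0.0378). Each of the 4 libraries was left out in turn, and the relatives called higher were not always among the 6 called with all libraries. Those without TRC replicate 1 included *Pvr*, which was not called with all libraries (log2 fold change 0.61, FDR = 0.201 in the exact test). *Cadm4* and *Bsg* were called in each of these 4 fits, although the log2 fold change of *Bsg* was 1.05 without TRC replicate 3. Without parental replicate 3 the FDR was 0.107 for *Cxadr*, 0.254 for *Igsf11* and 0.0631 for *Ceacam1*, and without TRC replicate 1 it was 0.36, 0.434 and 0.101, with a log2 fold change of 0.98 for *Cxadr* against 1.72 with all libraries. The FDR of *Nectin2* was 0.0555 without parental replicate 1 and 0.108 without TRC replicate 1. The call of *Kirrel* was lost without parental replicate 3 (FDR = 0.143), without TRC replicate 1 (FDR = 0.0856) and without TRC replicate 3 (FDR = 0.121).

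**Figure D4:**
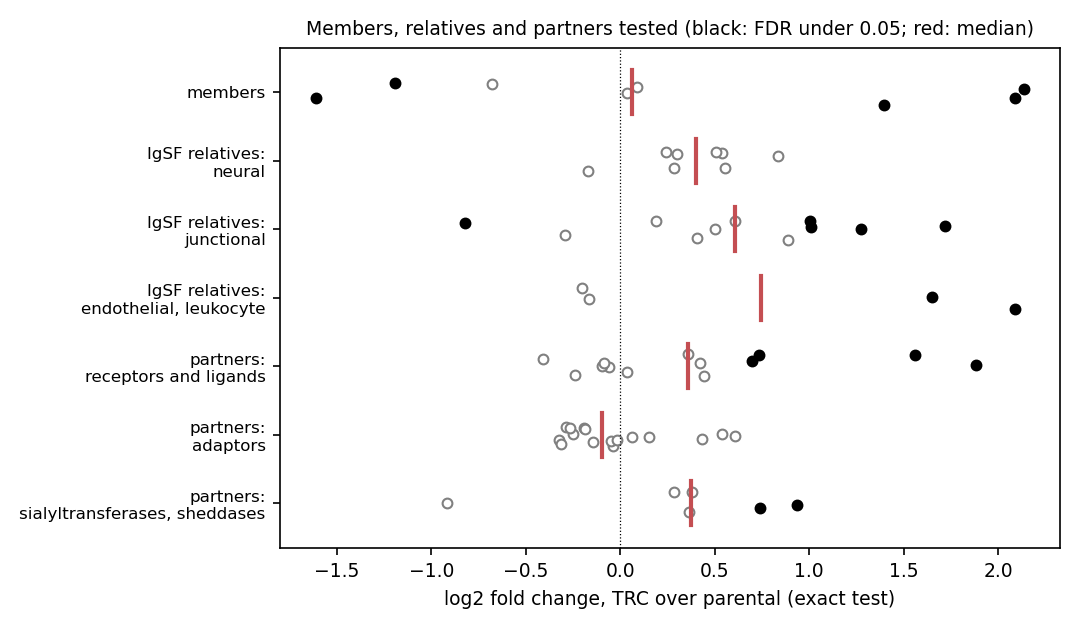
Log2 fold change (exact test) of every tested gene among the members, their relatives and their partners, 1 point per gene, with 2 libraries per group. Black points have an FDR under 0.05 and red lines mark the median of each list. The members spread from −1.61 to 2.14. The 16 adaptors lie between −0.33 and 0.60 with 0 genes called, beside 8.81% of all genes called higher and 7.05% lower.

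Partners were described from a list of 50 genes, of which 35 were tested. This list too was chosen with earlier results of these data known, and its shares are not independent results. Of the 35, 6 (17.1%) were higher and 0 lower in TRCs in the exact test, beside 8.81% and 7.05% of all genes tested, with 0 lower also at an unadjusted p under 0.05, in the quasi-likelihood test and in DESeq2's Wald test, and the median log2 fold change was 0.034. The genes called were receptors or proteases. *Itga9*, whose product pairs with β1 integrin and binds VCAM1 and matrix proteins, was at 31.2 and 18.3 CPM in parental cells and 78.3 and 67.5 CPM in TRCs (log2 fold change 1.56, SE 0.29, FDR = 2.06e-06). *Itgb3* and *Itgav*, which together encode αvβ3, an integrin that binds L1CAM, had log2 fold changes of 1.88 (FDR = 9.6e-06) and 0.70 (FDR = 0.0173). *Itgb3* was at 14.5 and 6.72 CPM in parental cells and 38.4 and 40.2 CPM in TRCs, and *Itgav* at 191 and 191 CPM and 310 and 309 CPM. *Nrp1*, a semaphorin co-receptor that associates with L1CAM, rose from 41.4 and 48.1 CPM to 85.0 and 63.7 CPM (FDR = 0.0198).

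Of the 6 tested genes among polysialyltransferases and sheddases, 2 rose (33.3%, beside 8.81% of all genes). *Bace1*, an aspartic protease known to cut CHL1 and other neural adhesion molecules, had a log2 fold change of 0.74 (FDR = 0.0171) and its relative *Bace2* one of 0.93 (FDR = 0.00191). *Bace2* was at 270 and 205 CPM in parental cells and 453 and 455 CPM in TRCs. *Adam10* and *Adam17*, which release the outer part of L1CAM and other members, had log2 fold changes of 0.37 (FDR = 0.323) and 0.28 (FDR = 0.446). *St8sia2* and *St8sia4*, the enzymes that attach polysialic acid to NCAM1, had 0 counts in every library, as did *St8sia3*. The 16 tested adaptors include the ankyrin gene *Ank2*, *Ezr*, *Rdx*, *Msn*, *Tjp1* and *Pard3*. Of the 16, 0 passed the exact test, beside 8.81% of all genes called higher and 7.05% lower. The difference from these shares was not tested. In the exact test 1 adaptor had an unadjusted p under 0.05, and 0 were called in the quasi-likelihood and Wald tests. Without parental replicate 3, *Ank2* was called lower (FDR = 0.0367), and without TRC replicate 3 the partner *Lgals3*, a galectin, was (FDR = 0.0155). The number of partners called higher was 3 or 4 when any 1 of the 4 libraries was left out, and it was 3 without parental replicate 3 and without TRC replicate 1. *Itga9* and *Itgb3* were called in each of these fits, and the log2 fold change of *Itgb3* was 2.55 without parental replicate 1 and 1.43 without parental replicate 3. *Itgav* was called in none of them, with an FDR of 0.0746 without parental replicate 1, 0.139 without parental replicate 3 and without TRC replicate 1, and 0.112 without TRC replicate 3. The FDR of *Nrp1* was 0.118 without parental replicate 1, 0.367 without TRC replicate 1 and 0.0578 in the quasi-likelihood test. That of *Bace1* was 0.194 without parental replicate 3, 0.205 without TRC replicate 1 and 0.0872 without TRC replicate 3, and that of *Bace2* was 0.109 without parental replicate 3.

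**Figure D5:**
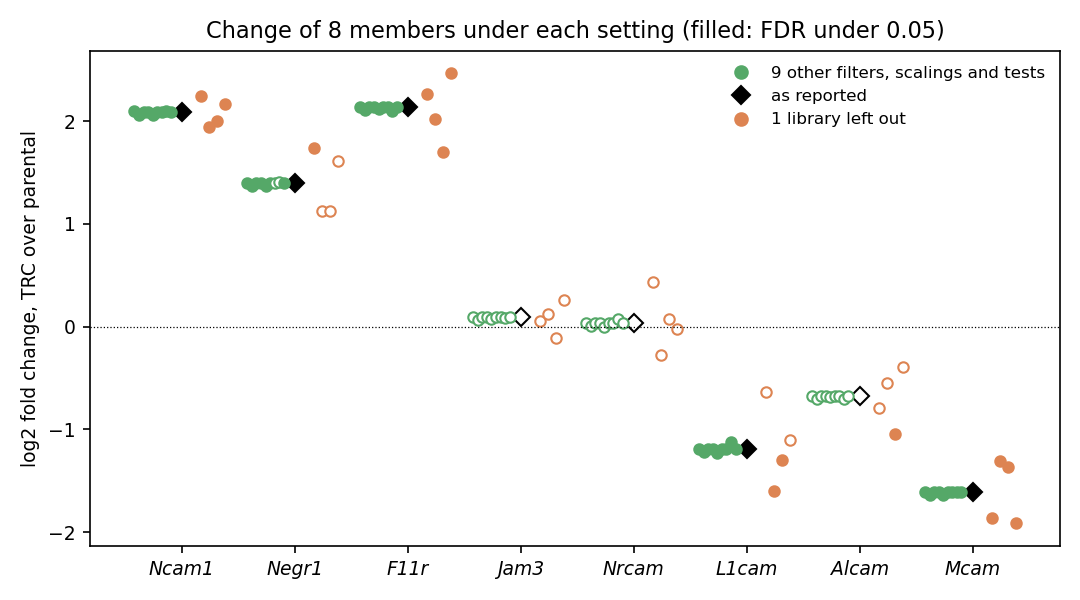
Log2 fold change of TRCs over parental cells for each of the 8 tested members under 13 alternatives, with 2 libraries per group or, for orange points, 1 library left out. The black diamond is the reported value, green points are 9 other filters, scalings and tests, and filled symbols have an FDR under 0.05. *Ncam1*, *F11r* and *Mcam* are filled throughout, and the orange points of *L1cam* run from −1.60 to −0.63.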

How the data were processed

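RNA-seq of polyA RNA from 2 parental B16F1 and 2 TRC samples was analysed. The deposited tables give, for each library, unnormalised read counts by Ensembl identifier. Per the labels and methods, single-end reads of stranded libraries were trimmed by the authors (Trimmomatic 0.35), mapped to the GRCm38 genome (TopHat2 2.1.0, Bowtie2 2.2.6, SAMtools 1.3) and counted (HTSeq). The strand setting of the counting is not given in the sources used here.

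Groups followed the cell type label and replicate numbers the sample titles. Totals that name no gene were removed, and these made up 20.2% to 29.0% of each library's alignments. Genes with at least 1 CPM in at least 2 libraries were kept, which is a reading of the filter worded in the study. The number of genes kept differed from the study's. TMM, common and tagwise dispersions and edgeR's exact test were run (edgeR 4.0.16, R 4.3.3, prior count 0.125). Benjamini-Hochberg adjustment was over all 11483 genes tested. SE and 95% intervals came from DESeq2 1.42.0. CPM used TMM-scaled library sizes. Counts on genes were 35948295 to 43511554 per library. Symbols, positions and exon lengths came from GENCODE M21, which held 37607 of 39179 identifiers, and promoters from RefSeq.

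Members and lists were chosen with earlier results of these data known. Named genes were all members and, for each list, the called genes without overlap between groups, ordered by FDR, to a maximum of 4. The test was checked on simulated data, in which the share of false calls was above the nominal FDR. The 13 alternatives were 3 filters, 2 scalings, a trended dispersion, the quasi-likelihood test (alone or with the replicate number as a block), DESeq2's Wald test and each of the 4 libraries left out.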

Additional observations from a re-analysis of the deposited data

How the results depend on the processing

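*Ncam1*, *F11r* and *Mcam* kept their direction and an FDR under 0.05 under all 13 alternatives, *L1cam* under 11 and *Negr1* under 8. With 1 library left out, the lone library of a group is assumed to vary like the other group. In these fits the members called lower ranged from 1 to 3, the relatives called higher from 3 to 6 and lower from 0 to 1, the partners called higher from 3 to 4 and lower from 0 to 1, and all genes called higher from 447 to 1109 and lower from 250 to 856. The log2 fold change of *Nrcam* ranged from −0.28 to 0.43 and that of *Jam3* from −0.11 to 0.26, and with library size only that of *Nrcam* was −0.0034. Neither was called under any alternative, and the cause of these shifts was not tested. The quasi-likelihood test called 567 genes higher and 487 lower. The labels do not say that same-numbered samples were prepared together, and across 11483 genes, libraries with a shared number departed from their groups with a correlation of only 0.0267, which does not pair them. With the replicate block the quasi-likelihood test called 477 genes higher and 308 lower, 2 members higher and 2 lower, 3 partners higher and 0 relatives lower. The block leaves 1 residual degree of freedom. No scaling moved the median of all genes by more than 0.1 on the log2 scale. Depth limits *Chl1* and *Vcam1*, which could not be compared, and *Negr1*, which rests on 42 to 193 counts per library.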
